A study of Mus musculus with 10 samples.

Results

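The ribosomal protein genes of the mouse cochlea were followed in RNA of noise-exposed and control mice. They were taken by name, as every probe set that the platform annotation pairs with 1 gene called Rpl or Rps plus a number and at most 1 further letter, which leaves out kinases such as Rps6kb1. The rule found 45 of the 12488 probe sets on the array, covering 31 of 8252 named genes. Of these, 20 probe sets of 15 genes belong to the large ribosomal subunit and 25 probe sets of 16 genes to the small one. A further 37 probe sets list a ribosomal protein gene together with other genes and are given only as a group. RefSeq holds 77 protein-coding mouse genes whose names match the rule, so the 31 genes are a part of the family.

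The animals were female mice, 10 weeks old, of the strains 129X1/SvJ, an inbred line used in hearing research for its resistance to noise, and B6.CAST, a C57BL/6J line with a CAST segment around the hair bundle gene Cdh23. The exposure lasted 1 h, with an octave band of noise at 105 dB SPL centred on 10 kHz, and the cochleas were taken 6 h after it. Controls of each strain were placed in the chamber without sound. Each array carried RNA pooled from 8 mice. For 129X1/SvJ there were 3 arrays per condition, and for B6.CAST there were 2. The labels write 129XI/SvJ for the third array of either condition, which was counted as 129X1/SvJ. Since no animal was measured alone, the spread given here is that between pools.

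Ribosomal proteins and ribosomal RNA together form the ribosome, whose small subunit decodes the messenger RNA and whose large subunit joins the amino acids. Ribosomal proteins are made in matched amounts, and surplus ones are degraded. Their messenger RNAs are abundant in every cell. Most begin with a cytosine followed by an unbroken run of pyrimidines, the terminal oligopyrimidine tract, through which growth signals acting on the kinase mTOR change how well they are translated. A change at that step does not need a change in the amount of messenger RNA, which is what the arrays measured. In the inner ear, aminoglycoside antibiotics, which kill hair cells, are drugs that bind ribosomes.

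Pyrimidine runs near the annotated start sites of the members were counted. RefSeq promoter entries of the GRCm38.p6 build, read from 250 bases before to 50 bases after each annotated start, were at hand for 24 of the 31 genes in 33 entries. An unbroken run of C and T that begins with C and is 7 or more bases long lay within 50 bases of the annotated start in 26 of the 33 entries (78.8%), against 40.7% of all 32851 promoters in the table. The share was 88.2% over the 17 entries of the large subunit and 68.8% over the 16 of the small subunit. Entries of a gene can share a run. Counted by gene, 20 of 24 members (83.3%) had such a run in at least 1 entry, against 44.5% of all genes in the table. The longest such run had a median length of 10 bases in the members and 6 bases in all promoters. The letters CCGGAAG, on either strand of the 300 bases, were found in 10 of the 33 entries (30.3%) and in 8.86% of all promoters. These are matches of letters. A run need not lie at the start itself, and an annotated start can differ from the start used in the cochlea. Windows of 30 bases around the run are printed for members described below, with the run in capitals, 5′ to 3′ on the strand of the gene. Rps28 is shown as a member whose longest run near the annotated start is short.
Rps10, chr17:27635226-27635255, minus strand: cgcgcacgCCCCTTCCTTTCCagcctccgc
Rps27, chr3:90213631-90213660, minus strand: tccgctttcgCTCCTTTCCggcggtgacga
Rps19, chr7:24884624-24884653, plus strand: cccgtcgttCCCTTTCCCCTggctggcagc
Rps7, chr12:28635910-28635939, minus strand: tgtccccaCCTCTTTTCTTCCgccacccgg
Rps24, chr14:24490711-24490740, plus strand: agcggtCCTCTTTTCCTCCTCTCCagctcc
Rpl13a, chr7:45128722-45128751, minus strand: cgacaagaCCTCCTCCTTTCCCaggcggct
Rpl7a, chr2:26910790-26910819, plus strand: caattCCCTCTTCTTTCTTTCTCCagcagc
Rps28, chr17:33824581-33824610, minus strand: acgctggtgacgaCTCTgtcccgaggattc
For Rps19 and Rps24, which have several entries, the longest run is shown. The runs span 9 bases in Rps27, 11 in Rps19, 13 in Rps10 and Rps7, 14 in Rpl13a, 18 in Rps24 and 19 in Rpl7a, while that of Rps28 has 4. They begin close to the annotated start in Rps10, Rps27 and Rpl13a, at -3, -2 and 2 bases from it. In Rpl7a, Rps7, Rps19, Rps24 and Rps28 they begin at -12, 22, -43, -36 and -35. The longest run was also short in Rps13, with 6 bases, and in Rps3 and Rps4x, with 5 each.

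Several facts of the series bear on these genes. Correlations of log2 values between arrays lay between 0.894 and 0.976. One noise array of 129X1/SvJ, its first, correlated least with the rest (mean 0.910), and its neutrophil marker genes were 2.17 above their mean on the log2 scale. Over that list, of which 13 of 17 genes were tested, the summed signal ranged from 13148 to 39347 on the noise arrays and from 3758 to 22114 on the control arrays of 129X1/SvJ, and from 2516 to 2784 on the noise arrays and 6232 to 20939 on the control arrays of B6.CAST. The Gapdh control probe sets, whose 3′ to 5′ ratio rises as RNA breaks down, gave a ratio of 29.2 for the second 129X1/SvJ control, 6.94 for the first B6.CAST noise array and 0.790 to 1.397 for the remaining arrays. The part of these differences in the results below was not tested except where a value without the array is given. Of 22 cochlear marker genes, 17 were on the array and 15 were bright enough to be tested, all but Ednrb and Crym. The summed signal of the 17, which the brightest genes weigh on most, was 44208 to 56542 on the arrays of 129X1/SvJ and 59764 to 68132 on those of B6.CAST. The genes themselves were split: of the 15 tested, 10 were higher and 5 lower in B6.CAST in controls, and 9 and 6 after noise. Between strains, the median difference (B6.CAST minus 129X1/SvJ) of 10 tested macrophage markers was 0.658 in controls and 0.145 after noise, and that of 10 erythroid markers was -0.377 and -1.418. The part of these differences in the strain comparisons was not tested.

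Not every member gave a usable signal. Signals are in the authors' scaled units, and a log2 change or difference was taken after quantile normalisation. After the dimmest 30% of probe sets were left out, 30 of the 45 member probe sets remained, 13 of the large subunit from 10 genes and 17 of the small subunit from 12 genes. The other 15 fell under the mean signal of 42.9 that this left, and a dim probe set shows how that probe set hybridised, not that the gene is silent. Both probe sets of Rpl38, a protein known for its part in the translation of Hox messenger RNAs, stayed between 0.6 and 66.9. Rpl35a, mutated in some cases of Diamond-Blackfan anaemia, stayed between 10.7 and 34.7. The single probe sets of Rpl32, Rpl39, Rps14, Rps15 and Rps20 were also too dim. Among the paralogues, Rpl39l, a copy best known from testis, had signals of 25.6 to 52.8, and Rps27l, a p53-responsive copy of Rps27, 5.4 to 34.3. For Rpl7 and Rps4x, 1 probe set of each gene was bright while the others, 1 for Rpl7 and 4 for Rps4x, were too dim to test, although 1 of those of Rps4x reached 111.8 on the first noise array of 129X1/SvJ. Rps6, Rps26, Rpl5 and Rpl11, which are often studied in signalling and anaemia, are not among the 45 probe sets and were not analysed here.

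Several strongly detected members varied little across the 10 arrays. Rpl7 (97695_s_at), an RNA-binding protein of the large subunit, ranged from 8771 to 10263, with 9510 ± 644 (SD, n = 3) in 129X1/SvJ controls, 9626 ± 742 (SD, n = 3) after noise, 9632 ± 476 (SD, n = 2) in B6.CAST controls and 9827 ± 544 (SD, n = 2) after noise. The 4 groups overlapped, and the range over the arrays was 0.169 on the normalised log2 scale. Rps4x, an X-linked protein of the small subunit, ranged from 9725 to 11310 at its bright probe set (100780_at). Rpl41 (100213_f_at), the smallest ribosomal protein, ranged more widely in deposited signal, from 17397 to 28711 with a median of 22553. The probe sets of Rpl7 and Rpl41 are among 8 tested members whose suffix marks possible cross-matching. Other transcripts may therefore add to their signal. The untested probe set of Rpl7 (97697_at) stayed between 2.3 and 10.8.

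**Figure D1:**
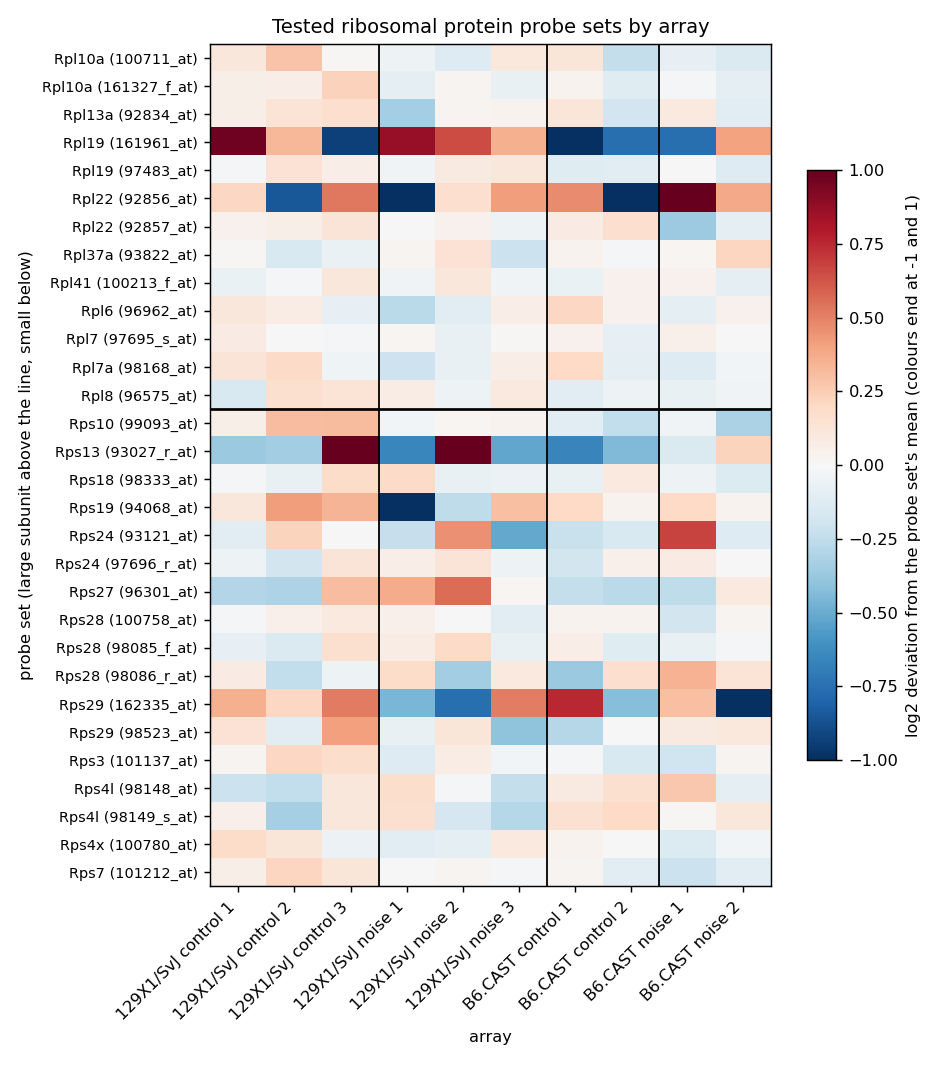
Heat map of the 30 tested ribosomal protein probe sets (rows, large subunit above the black line) on the 10 arrays (columns). Colour is the normalised log2 value minus the probe set's mean over the arrays. Most rows are pale in every column, and strong colours lie in a few rows such as Rps19, Rps13 and the dimmer probe sets of Rpl22 and Rpl19. Colours end at -1 and 1.

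The first comparison asked how noise changed these genes in 129X1/SvJ. Of the 30 members, 0 passed an adjusted p of 0.05 in limma, where 0.506% of all 8695 tested probe sets did (44, of which 40 were higher after noise). At an unadjusted p under 0.05, 1 member, Rps19, passed, against 11.5% of all tested. In tissue RNA, fewer cells of a type and less RNA per cell cannot be told apart. The median log2 change of the members was -0.099, and that of all tested probe sets was -0.040. It was negative for 23 members and positive for 7, while 45% of all tested were positive. This split followed the scaling between arrays. With the authors' scaling alone the members' median was -0.009, with 16 negative and 14 positive, against 51.6% positive over all tested. With centring on each array's median the members' median was -0.134, with 25 negative. All tested moved to -0.11 there, with 36.2% positive. The 37 probe sets listed with other genes, of which 32 were tested, had a median of -0.134 and no call, with 2 at an unadjusted p under 0.05.

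Rps19 (94068_at) encodes a small subunit protein and is the gene most often mutated in Diamond-Blackfan anaemia. Its signals in 129X1/SvJ were 8756, 9648 and 11190 on the control arrays and 3006, 7190 and 9031 on the noise arrays. A single array, the first noise array, was far below all others, and the 2 groups overlapped. The log2 change was -0.735 ± 0.315 (SE), with an unadjusted p of 0.0388 and an adjusted p of 0.416 in limma. That array also correlated least with the rest and held the highest neutrophil markers, and without it the change was -0.263. Without the third noise array it was -1.12. In B6.CAST the signals were 9112 and 8608 in controls and 9687 and 8214 after noise, with a 95% interval of the change from -0.845 to 0.845.

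Rps27 (96301_at), also called metallopanstimulin, a zinc finger protein of the small subunit, had the opposite sign. Its signals in 129X1/SvJ were 623, 621 and 938 in controls and 951, 1105 and 796 after noise. The third control array lay within the noise group, so the groups overlapped. The log2 change was 0.417 ± 0.210 (SE), with an adjusted p of 0.469 in limma and a 95% interval from -0.043 to 0.878. In B6.CAST it was 0.177 ± 0.257 (SE), and its signals of 639 and 622 in controls and 621 and 810 after noise overlapped.

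Groups that did not overlap were counted on the normalised log2 scale. Noise and control arrays of 129X1/SvJ were apart, with noise lower, for 4 of the 30 members, namely Rps10, Rps7, Rpl13a and 1 probe set of Rpl10a, against 9.63% of all tested. They were apart with noise higher for 0 members, against 6.35% of all tested. Rps10 (99093_at), a small subunit protein that is ubiquitinated when ribosomes collide, had normalised log2 values of 12.95, 13.20 and 13.21 in controls and 12.87, 12.91 and 12.93 after noise. Its 3 noise arrays were thus close to each other and just under the lowest control. The change was -0.215 ± 0.113 (SE), with an adjusted p of 0.482 in limma. Rps7 (101212_at), a small subunit protein known to bind the p53 regulator Mdm2, had values of 13.05, 13.20 and 13.11 in controls and 12.98, 13.01 and 12.97 after noise. The gap between its groups was small beside the 95% interval of the change, -0.329 to 0.074. For both genes the deposited signals, before quantile normalisation, overlapped. Rpl13a, which joins a complex that silences inflammatory messenger RNAs in myeloid cells, had deposited signals of 1191, 1268 and 1241 in controls and 865, 1123 and 1170 after noise. Its lowest value was again on the first noise array, and the change was -0.213 ± 0.156 (SE), with an adjusted p of 0.600 in limma.

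**Figure D2:**
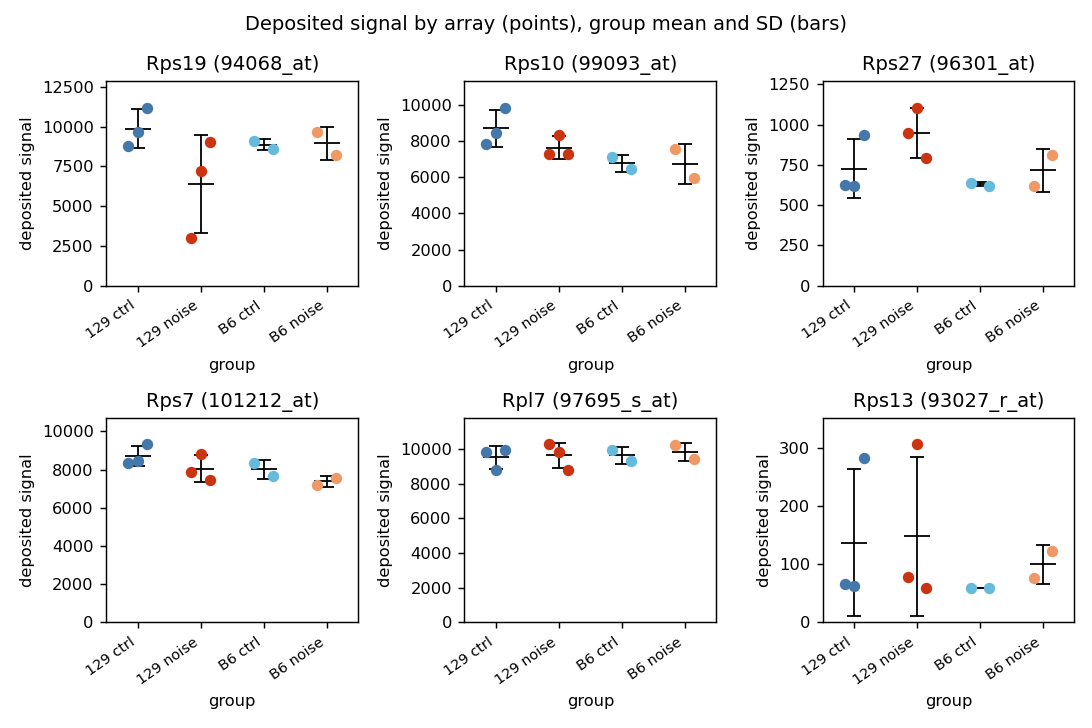
Deposited signal (linear axis from 0) of 6 ribosomal protein probe sets in the 4 groups: 129X1/SvJ control and noise (129 ctrl, 129 noise) and B6.CAST control and noise (B6 ctrl, B6 noise). Points are arrays, and bars are the group mean and SD. Rps19 has 1 low noise array at 3006, Rps13 has 2 high arrays at 284 and 306, and Rpl7 stays between 8771 and 10263.

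In B6.CAST, no member passed the adjusted threshold in limma, where 0.046% of all tested did, and 0 had an unadjusted p under 0.05, against 2.1% of all tested. The median log2 change was -0.003, beside 0.006 for all tested. Rpl22, an RNA-binding protein of the large subunit that most cells can do without, had the smallest p at its brighter probe set, with 636 and 678 in controls and 448 and 569 after noise. Both noise arrays were lower, and the first noise array, the one with the raised Gapdh ratio, was lowest. Its change was -0.353 ± 0.179 (SE), with an adjusted p of 1.000 in limma, and without that array it was -0.218. With 2 arrays against 2, groups are often apart: 15.8% of all tested probe sets were higher and 13.8% lower without overlap. The counts for the members were 4 higher (probe sets of Rpl19, Rps13, Rps24 and Rps29) and 5 lower (probe sets of Rpl22, Rps28, Rps4l, Rps4x and Rps7), which is near that background.

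Both noise comparisons were also combined. For the mean of the 2 noise effects, 0 members passed in limma at the adjusted threshold, against 0.46% of all tested, and 0 at an unadjusted p under 0.05, against 7.63%. For the difference of the noise effects between strains, 0 members and 0% of all tested probe sets passed, and 0 members had an unadjusted p under 0.05, against 2.97%. The median difference (B6.CAST minus 129X1/SvJ) was 0.058 in the members and 0.063 in all tested, with 21 of 30 members and 57.4% of all tested positive. It was positive for 18 members with the authors' scaling alone and for 26 with median centring, against 52% and 67.3% of all tested. With median centring its median was 0.158 in the members, beside 0.160 in all tested. No member had noise and control apart in opposite directions in the 2 strains, which 0.978% of all tested did. The widest difference was at the dim probe set of Rpl22, 1.188 ± 0.858 (SE), with an adjusted p of 0.997 in limma, and it ran from 0.451 to 1.922 without the second or the first control array of B6.CAST. For Rps19 it was 0.735 ± 0.497 (SE), which became 0.263 once the low array of 129X1/SvJ was left out.

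The limits that these data set on a noise effect were narrow for many members. The 95% interval of the log2 change lay wholly within -0.5 and 0.5 for 19 of 30 members in 129X1/SvJ (63.3%), for 18 in B6.CAST (60.0%) and for 22 in the mean of both strains (73.3%). Over all tested probe sets these shares were 17.7%, 11.3% and 38.6%. For the difference between strains the interval was that narrow in 13 members (43.3%) and in 2.35% of all tested. These shares were not matched for signal. A mean signal above 1000 was found in 19 of the 30 members and in 2072 of the 8695 tested. Over all tested, the median SD within groups was 0.199 above that signal and 0.304 at or below it. Rpl7, the member with the smallest SD within groups (0.06), had intervals of -0.229 to 0.157 in 129X1/SvJ and -0.196 to 0.277 in B6.CAST. Rpl8, a protein near the peptidyl transferase centre, had -0.236 to 0.221 and -0.254 to 0.306. Quantile normalisation narrows such intervals at the highest ranks, as given below for Rpl41.

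**Figure D3:**
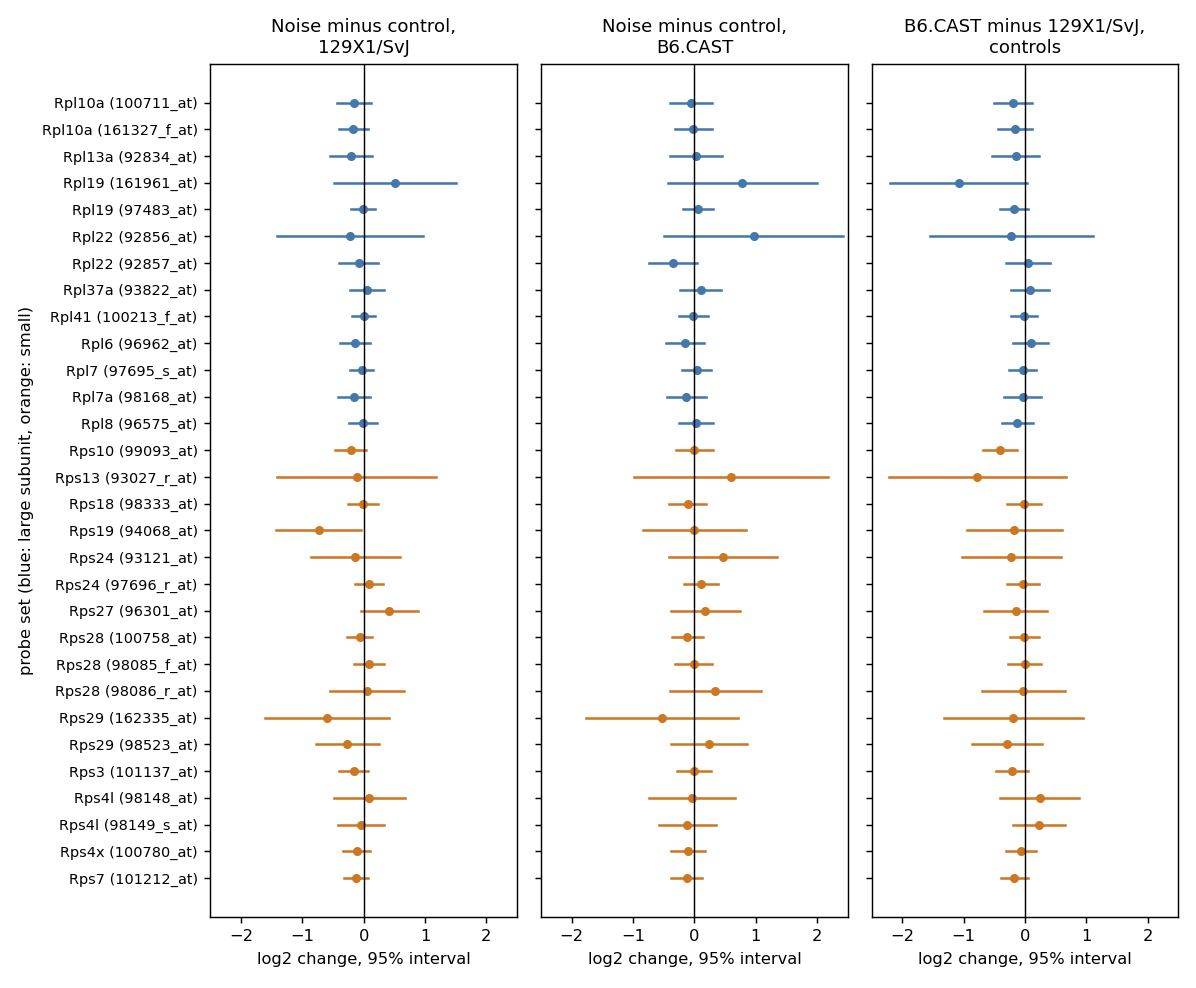
Log2 change and 95% interval of each tested member in 3 comparisons: noise minus control in 129X1/SvJ, noise minus control in B6.CAST, and B6.CAST minus 129X1/SvJ in controls. Blue marks the large subunit and orange the small. Most intervals include 0, with Rps19 in the first panel and Rps10 in the third as exceptions before adjustment, and neither passed after it.

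The strains were compared within control and within noise-exposed mice. In controls 0 members passed the adjusted threshold in limma, against 0.92% of all tested, and 1 had an unadjusted p under 0.05, against 11.1%. After noise 0 members passed, against 1.45%, and 0 had an unadjusted p under 0.05, against 10.6%. The median difference (B6.CAST minus 129X1/SvJ) in controls was -0.139 in the members, with 25 of 30 negative, and -0.046 in all tested, with 43.6% positive. This also moved with the processing: with the authors' scaling alone 17 of 30 were negative and the median was -0.109, and with the replicate number as a block it was -0.041. After noise the median was -0.043 in the members, with 11 of 30 positive, and 0.015 in all tested, with 52.4% positive. With median centring 21 of 30 were positive there, against 60.7% of all tested, and the median was 0.074, beside 0.085 in all tested. Both strain comparisons and both noise comparisons share arrays, so their values are not independent.

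Rps10 was the member with the smallest p between strains. Its deposited signals were 7839, 8475 and 9849 in 129X1/SvJ controls and 7096 and 6441 in B6.CAST controls, so that both B6.CAST arrays were under all 3 arrays of 129X1/SvJ. After noise they were 7311, 8351 and 7275 in 129X1/SvJ and 7540 and 5948 in B6.CAST. The difference in controls was -0.404 ± 0.126 (SE), or 0.756 fold, with an unadjusted p of 0.00813 and an adjusted p of 0.248 in limma. Leaving out 1 array at a time gave -0.487 to -0.328. After noise it was -0.188 ± 0.126 (SE), with an adjusted p of 0.689 in limma.

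Control arrays of the strains did not overlap, with B6.CAST lower, for 7 members (probe sets of Rpl10a, Rpl19, Rps3, Rps7, Rps10, Rps13 and Rps24), against 16% of all tested. They were apart with B6.CAST higher for 1, a probe set of Rps4l, against 13.9%. After noise B6.CAST was apart and lower for 3 (Rpl22, Rps7 and Rps10), against 12.1%, and apart and higher for 0, against 13.2%. Rps7 and Rps10 were on the lower side in both on the normalised log2 scale. Their deposited signals after noise overlapped. For Rps7 these were 7853, 8807 and 7433 in 129X1/SvJ and 7183 and 7565 in B6.CAST. In controls the lowest Rps7 signal of 129X1/SvJ, 8367, was only just above the higher one of B6.CAST, 8356. Rps3, a small subunit protein that also takes part in DNA repair and in NF-kB complexes, had 8884, 9047 and 10651 in 129X1/SvJ controls and 8689 and 8225 in B6.CAST controls. The lowest control of 129X1/SvJ was only just above the higher B6.CAST array, and the difference was -0.217 ± 0.118 (SE), with an adjusted p of 0.557 in limma. Rps4l, a copy of Rps4x, had 863, 657 and 873 in 129X1/SvJ controls and 903 and 941 in B6.CAST controls at its brighter probe set. The difference was 0.232 ± 0.193 (SE), with a 95% interval from -0.190 to 0.655. It was 0.095 without the second control of 129X1/SvJ, the array with the Gapdh ratio of 29.2.

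Large and small subunit members were then set side by side, each probe set as its deviation from its own mean over the 10 arrays. For the large subunit the array medians were 0.069 ± 0.008 (SD, n = 3) in 129X1/SvJ controls, 0.018 ± 0.052 (SD, n = 3) after noise, -0.028 ± 0.101 (SD, n = 2) in B6.CAST controls and -0.025 ± 0.009 (SD, n = 2) after noise. For the small subunit they were 0.039 ± 0.120, -0.009 ± 0.037, -0.006 ± 0.005 and -0.014 ± 0.031 in the same order. Large minus small was 0.030 ± 0.123, 0.027 ± 0.079, -0.022 ± 0.106 and -0.012 ± 0.040. The group means of that gap lay closer together than its pooled SD of 0.096 between arrays of a group, and the 4 groups overlapped. The lowest gap was -0.097, on the second B6.CAST control array, and the highest 0.152, on the control array of 129X1/SvJ with the Gapdh ratio of 29.2. The same array had the widest quartile range over the members, 0.353, against 0.153 to 0.258 on the others.

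The median changes of the subunits were close in each comparison. For noise in 129X1/SvJ they were -0.082 over the large and -0.117 over the small subunit, and for noise in B6.CAST 0.026 and -0.006. For the strain difference they were -0.127 and -0.152 in controls and -0.010 and -0.058 after noise. The large subunit median was higher by 0.024 to 0.052 in the 6 comparisons. No standard error was computed for these gaps. The SD of 0.096 is that of the gap on single arrays over all tested members, so it is not a measure of their precision. Read at the brightest probe set of each gene, the gap was 0.122 for strains in controls, again without a standard error. For noise in 129X1/SvJ the sign of this gap turned with the scaling, to -0.011 with the authors' scaling alone. In each of the 6 comparisons the sign also turned when some single array was left out, with lowest values from -0.069 to -0.012.

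**Figure D4:**
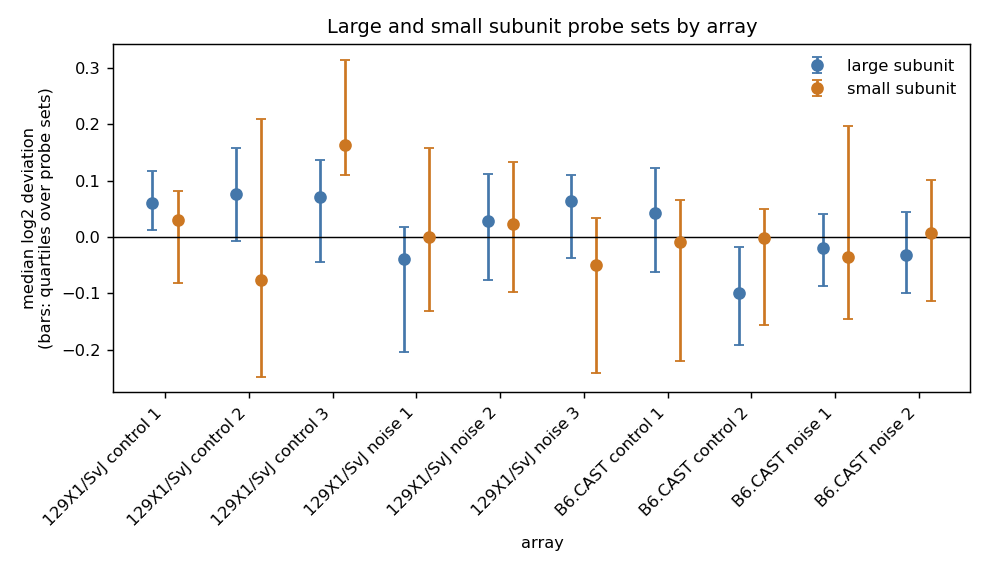
Median log2 deviation from each probe set's own mean, for 13 large subunit (blue) and 17 small subunit (orange) probe sets on each array. Bars reach from the lower to the upper quartile over probe sets. Array medians lie between -0.100 and 0.163, and the quartile bars of the subunits overlap on each of the 10 arrays.

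Arrays of 1 group agreed closely for most members. The median SD within groups was 0.132 on the log2 scale over the members, 0.128 over the large and 0.193 over the small subunit, beside 0.275 over all tested. Among the 19 members with a mean signal above 1000 the median SD was 0.126, against 0.199 over the 2072 tested probe sets that bright. Among the 11 members at or below 1000 it was 0.277, against 0.304 over 6623. Quantile normalisation itself narrows the spread of the brightest probe sets, since it fixes the values at the top ranks: Rpl41 ranked between 5 and 11 on every array, and its range was 0.204 after normalisation and 0.722 with the authors' scaling alone. With that scaling the medians were 0.146 and 0.206 for the bright members and all bright probe sets. The smallest ranges after normalisation were those of Rpl7 (0.169), Rpl41 (0.204), Rpl19 at its bright probe set (0.275) and Rps28 (0.276).

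**Figure D5:**
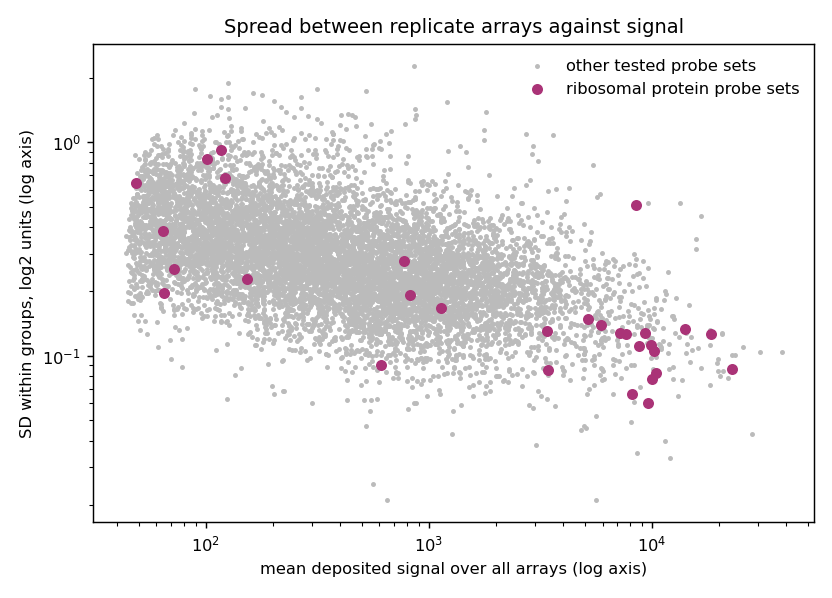
SD between arrays of a group (log axis, log2 units) against the mean deposited signal (log axis) for the 30 ribosomal protein probe sets (purple) and all other tested probe sets (grey). Among the 19 members above a signal of 1000, Rps19 has the widest SD, 0.510.

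The widest ranges were at dim probe sets and at Rps19. The dim probe set of Rpl22 ranged over 2.393, Rps13 over 2.173, the dim probe set of Rpl19 over 2.127 and Rps19 over 1.805. Rps13, a small subunit protein that contacts the large subunit, had 283.5 on the third control and 306 on the second noise array of 129X1/SvJ and 58.5 to 123.6 on the other 8 arrays. Both high arrays were of 129X1/SvJ, 1 control and 1 noise-exposed, and the other 4 arrays of that strain lay between 59.3 and 78.3. Its identifier (93027_r_at) carries the suffix of probe sets designed with relaxed rules. The bright probe set of Rps24 (97696_r_at), with a range of only 0.317, and the dim one of Rps28 (98086_r_at) carry it too.

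Probe sets of the same gene did not always show the same values. Rpl22 differed most: for noise in B6.CAST the brighter probe set gave -0.353 and the dimmer one 0.967, a gap of 1.320. At the dimmer one the signals were 137 and 30.9 in B6.CAST controls and 181 and 127 after noise, so that the groups overlapped. The value of 0.967 ran from 0.229 to 1.702 without the second or the first of those controls. For Rpl19, a large subunit protein that also touches the small subunit, the strain difference in controls was -0.185 at the bright and -1.081 at the dim probe set. The dim one had 215.5, 120.3 and 50 in 129X1/SvJ controls and 40 and 47.8 in B6.CAST controls. Its difference ran from -1.615 to -0.655 without the third or the first control of 129X1/SvJ. For Rps29, a small zinc-binding protein, both probe sets were dim, with signals of 107.2 to 206.1 and of 14.6 to 91.2. Noise in B6.CAST gave 0.240 ± 0.285 (SE) at the former and -0.522 ± 0.564 (SE) at the latter. Both probe sets of Rpl10a, known from work on ribosomes of differing makeup, gave nearly the same values, -0.159 and -0.168 for noise in 129X1/SvJ and -0.196 and -0.164 between strains. Rps24, another gene of Diamond-Blackfan anaemia, had a bright probe set and a dim one, the latter with signals of 34.6 to 97.9. Their changes were 0.083 and -0.135 for noise in 129X1/SvJ and 0.111 and 0.462 ± 0.402 (SE) in B6.CAST, in that order. Single arrays moved these: the 0.083 ran from 0.008 to 0.164 without the second or the third control of 129X1/SvJ, and the 0.462 from 0.058 to 0.865 without the first or the second noise array of B6.CAST.

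The remaining members gave small values at their bright probe sets. Rpl6 had noise changes of -0.141 ± 0.114 (SE) in 129X1/SvJ and -0.148 ± 0.140 (SE) in B6.CAST, and the latter ran from -0.226 to -0.064 without the second or the first B6.CAST control. Rpl7a, which binds the large ribosomal RNA and shares only a name with Rpl7, had -0.163 ± 0.121 (SE) and -0.130 ± 0.148 (SE). Rps18, at the head of the small subunit, had -0.011 ± 0.111 (SE) and -0.109 ± 0.136 (SE), and Rpl37a 0.058 ± 0.125 (SE) and 0.106 ± 0.153 (SE). Of the 3 probe sets of Rps28, the bright ones gave 0.086 and -0.063 in 129X1/SvJ and -0.014 and -0.113 in B6.CAST. The dim one, with signals of 47.7 to 108.5, gave 0.053 ± 0.274 (SE) and 0.341 ± 0.336 (SE). All of these intervals included 0.

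A few further cytosolic ribosomal proteins have names outside the rule, and each was read only at its brightest probe set. Rplp0, the base of the stalk that recruits translation factors, had noise changes of 0.008 ± 0.099 (SE) in 129X1/SvJ and 0.003 ± 0.121 (SE) in B6.CAST. Fau, whose product is split into a ubiquitin-like protein and a small subunit protein, had 0.144 ± 0.355 (SE) and 0.203 ± 0.435 (SE). Rpsa, which is also known as a laminin receptor, had signals of 2031, 2493 and 2458 in 129X1/SvJ controls and 2012 and 1553 in B6.CAST controls. After noise they were 2281, 2167 and 2312 in 129X1/SvJ and 1709 and 1806 in B6.CAST, each B6.CAST array being under each 129X1/SvJ array. The strain difference was -0.395 ± 0.159 (SE) in controls and -0.395 ± 0.159 (SE) after noise, with adjusted p-values of 0.376 and 0.378 in limma.

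Mitochondrial ribosomal proteins serve the separate ribosome of the mitochondrion, and each gene was read at its brightest probe set. For noise in 129X1/SvJ the log2 change was negative in 48 of 59 tested genes, with a median of -0.182, beside 4783 of 8695 and -0.040 over all tested. In limma 0 passed the adjusted threshold, against 0.506% of all tested, and 5 had an unadjusted p under 0.05, against 11.5%. Over all 67 tested probe sets of these genes, 53 were negative, 52 with the authors' scaling alone and 61 with median centring. In B6.CAST it was negative in 43 of 59, with a median of -0.069, beside 4246 of 8695 and 0.006 over all tested. In limma 0 passed there and 0 had an unadjusted p under 0.05, against 0.046% and 2.1% of all tested. Between strains after noise 1 of 59 passed, against 1.45% of all tested, and this was Mrps12, a protein of the decoding site. Its signals were 419, 707 and 619 in 129X1/SvJ and 1243 and 1134 in B6.CAST, a difference of 1.057 ± 0.213 (SE) with an adjusted p of 0.0316 in limma. In controls they were 775, 756 and 778 against 1405 and 1576, with an adjusted p of 0.0737 in limma. Of 10 fits that each left out 1 array, 2 kept the call after noise.

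Genes that build ribosomes or drive translation were taken from lists of gene names or of name beginnings, and each was read only at its brightest probe set. Such lists also hold genes named after a factor. Eef1akmt1, a methyltransferase, was counted with the elongation factors, and Eif4ebp2, a binding protein of an initiation factor, with the initiation factors. The S6 kinases, Rps6kb2 and Rps6kc1, are so called by name. In all 6 comparisons 0 of 42 ribosome biogenesis genes, 0 of 38 initiation factors, 0 of 7 elongation factors and 0 of 2 S6 kinases passed the adjusted threshold in limma. At an unadjusted p under 0.05, for noise in 129X1/SvJ, these were 4, 1, 3 and 0, against 11.5% of all tested. Eef1akmt1 is among the 3. Over the 6 comparisons the counts reached at most 4, 3, 3 and 0. Among 17 regulators of ribosomal protein synthesis, 1 passed, in control mice between strains, where 0.92% of all tested did. This was Pabpc1, the poly(A)-binding protein, whose own messenger RNA carries the oligopyrimidine start. Its signals were 4574, 4400 and 4532 in 129X1/SvJ controls and 6477 and 6724 in B6.CAST controls, and it was higher in B6.CAST by 0.550 ± 0.111 (SE), with an adjusted p of 0.0469 in limma. Of 10 fits that each left out 1 array, 1 kept this call.

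Of 4 tested genes whose transcripts host small nucleolar RNAs, the guides of ribosomal RNA modification, Gas5 and Snhg6 passed the adjusted threshold in limma in both strain comparisons, where 0.92% and 1.45% of all tested did. The other 2 were negative and did not pass. Each of the 4 was read only at its brightest probe set. Gas5, whose RNA also begins with an oligopyrimidine tract, had signals of 583, 400 and 387 in 129X1/SvJ controls and 3285 and 2488 in B6.CAST controls. After noise they were 323, 428 and 495 in 129X1/SvJ and 3302 and 2508 in B6.CAST. Every B6.CAST array was thus far above every array of 129X1/SvJ, and the difference was 2.603 ± 0.246 (SE) in controls, with an adjusted p of 0.000287 in limma. Snhg6 had 176, 140 and 171 against 1036 and 849 in controls, a difference of 2.383 ± 0.221 (SE) with an adjusted p of 0.000275 in limma. Both were also higher in B6.CAST after noise, by 2.802 ± 0.246 (SE) for Gas5 and 2.695 ± 0.221 (SE) for Snhg6, with adjusted p-values of 0.000192 and 0.000122 in limma. Both calls were kept in each of 10 fits that left out 1 array.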

How the data were processed

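The authors deposited 1 intensity per probe set and Affymetrix array, on a linear scale. The values show that the authors scaled each array to a common mean, near 499.9 once the extreme 2% of probe sets at either end are dropped. Which software and target they used is not stated in the labels. Probe sets were named from the platform annotation, and all 45 member symbols matched RefSeq (GRCm38.p6). From the intensities, log2(intensity + 16) was computed and quantile normalised. The 66 control probe sets and the dimmest 30% of the others were left out, which left 8695 with a mean signal above 42.9. In limma 3.58.1 (R 4.3.3), a model with 1 mean for each of the 4 groups was fitted to the 10 arrays, with a variance trend and Benjamini-Hochberg adjustment over all 8695 at a threshold of 0.05. Because of the added constant, log2 changes of dim genes are understated. The script was tested on simulated data. The number of arrays limits the precision.

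Members and gene lists were chosen with earlier results of these data known. Named members are the 3 per direction with the smallest p in each comparison, the widest and narrowest ranges, members fixed for disease or regulatory roles, paralogues, and genes with differing probe sets. Other genes named, Rps18, Rpl37a and Rpl8 among them, were chosen after their values were seen. Replicate numbers were not used to pair the arrays in the main fit, and whether they mark pairs was not settled. Alternatives covered scaling, pseudocount, filter, trend, weights, arrays left out, block, threshold and the choice of probe sets.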

Additional observations from a re-analysis of the deposited data

How the results depend on the processing

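The number of members past the threshold was 0 in each of the 6 comparisons in limma, under every alternative run, adjusted p of 0.10 included. Median changes of the members were less steady, and the cause was not tested. For noise in 129X1/SvJ the median was -0.009 with the authors' scaling alone and -0.023 without a filter, and -0.100 to -0.045 with 1 array left out, at -0.045 without the third control or the third noise array. For noise in B6.CAST it was -0.047 to 0.067, without the second and the first control array. For the mean noise effect it was -0.087 both with the dimmest 50% left out and without cross-matching probe sets. Median centring gave 0.158 for the difference of noise effects and 0.074 for strains after noise, where all tested moved alike, to 0.160 and 0.085. For strains in controls the median was -0.051 with the dimmest 50% left out, -0.081 with array weights and -0.155 to -0.083 with 1 array left out, at -0.083 without the second B6.CAST control. With the replicate number as a block it was -0.041, with 0 members past the threshold in each comparison. Correlations of deviations between same-numbered arrays were -0.389 to 0.140 over 13 pairs, and 2 of 10 arrays matched their own number best. In groups of 2 arrays the deviations mirror each other, so these pairs are not independent and cannot exclude a pairing by number.

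The gap of large minus small subunit was 0.122 for strains in controls with the brightest probe set of each gene, and -0.069 to 0.087 for the difference of noise effects with 1 array left out. Directions turned for 4 single values far from the threshold. Rps28 (98085_f_at) had a difference of noise effects of 0.043 with median centring. Without both arrays of high Gapdh ratio, Rps27 had one of 0.040. Rps24 (93121_at) after noise was -0.033 between strains in that setting and ran from -0.033 to 0.773 with 1 array left out. The dim probe set of Rpl19 ran from -0.023 to 0.921 for noise in 129X1/SvJ.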
